A study of Mus musculus with 6 samples.

Results

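The acute phase protein genes are described here in the liver tumors of CMRtdT mice. They are 10 genes chosen by name, of 35683 genes summed from the deposited transcripts: the serum amyloid A genes *Saa1*, *Saa2*, *Saa3* and *Saa4*, the orosomucoid genes *Orm1* and *Orm2*, the haptoglobin gene *Hp*, the hemopexin gene *Hpx*, and the pentraxin genes *Apcs* and *Crp*. All 10 were measured in each of 6 tumors, 3 from each of 2 male mice, by RNAseq of poly A RNA. Both mice carried a *Ctnnb1* allele that loses an exon on recombination, which leaves a stable β-catenin, the *MUP-uPA* transgene, which injures hepatocytes, and a tdTomato reporter. They were fed a high-fat diet (HFD) from 6 weeks of age and received AAV8-TBG-Cre, an AAV with a hepatocyte promoter, at 8 weeks, and the tumors were excised 6.5 months later. All tumors thus belong to 1 condition, no normal liver was analysed here, and the only grouping is by mouse, where tumors of 1 animal stand in for replicates.

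Acute phase proteins are secreted mainly by hepatocytes, and their plasma levels change in infection, injury and cancer. Il6-type cytokines signal through Stat3 and Il1-type cytokines through NF-kappaB, and both act together with C/EBP factors on these genes. In the mouse, *Saa1*, *Saa2* and *Apcs* are among the most inducible, *Saa4* is expressed constitutively, *Saa3* is also made by macrophages and adipocytes, and *Crp* responds weakly. Albumin, transferrin and transthyretin are negative acute phase proteins, whose levels fall in the response.

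The tumors had 19130532 to 27681766 estimated counts each. Levels are given as TPM, a share of all transcripts that takes their length into account. Tumor 1 of mouse 1 stood apart. The 12 hepatocyte markers, albumin among them, summed to 2138 TPM there, where each of the other 5 tumors had 41632 to 70238 TPM. That liver tumor thus held few hepatocyte transcripts, and results are given with and without it. In bulk tissue, fewer cells of a type and less RNA per cell cannot be told apart. The closest pair was mouse 1 tumors 2 and 3. Their counts differed by a chi-square of 8.21 per degree of freedom, beyond sampling noise, against 79.5 or more in any other pair, and the 10 genes differed between them by at most 1.13-fold.

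*Hp*, whose product binds free hemoglobin, had the highest level. Its mean was 2655 ± 715 TPM (SD, n = 5, without tumor 1 of mouse 1). *Hpx*, whose product binds free heme, followed with 1947 ± 422 TPM, and *Orm1*, which encodes a lipocalin that carries lipids and drugs in plasma, with 528.9 ± 119 TPM. This order of the 3 genes held in each of the 6 tumors. *Hp* ranked between 34 and 66 among all genes in the 5 tumors and at 1064 in tumor 1 of mouse 1.

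Below these, the order was not fixed. Mean levels over the 5 tumors were 167.6 ± 121 TPM for *Apcs*, 109.4 ± 22.2 for *Crp*, 106.9 ± 16.6 for *Orm2*, 101.4 ± 152 for *Saa1* and 93.3 ± 32.4 for *Saa4*. *Saa2*, with 40.4 ± 64.8 TPM, and *Saa3*, with 10.2 ± 2.65 TPM, came last. From *Apcs* down, each gene exceeded its lower neighbour in 2 to 4 of the 5 tumors, so these neighbours did not differ beyond their spread. The 10 genes together held 0.355% to 0.751% of all TPM in the 5 tumors and 0.0201% in tumor 1 of mouse 1.

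**Figure D1:**
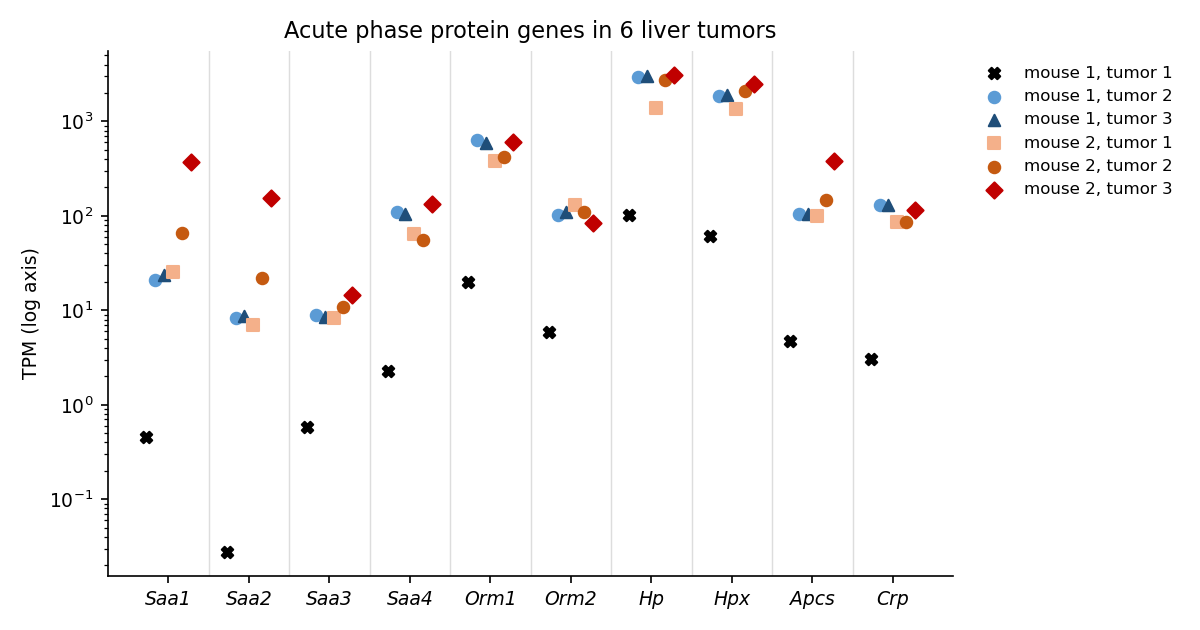
TPM (log axis) of the 10 acute phase protein genes (x axis), 1 point per tumor, without error bars. Tumor 1 of mouse 1 (black crosses) is the lowest for each gene, and tumor 3 of mouse 2 (red diamonds) stands above the others for *Saa1*, *Saa2* and *Apcs*.

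The inducible serum amyloid A genes varied most. *Saa1*, an apolipoprotein of high-density lipoprotein whose level can rise steeply in inflammation, had 21.1 and 23.8 TPM in mouse 1 tumors 2 and 3 and 25.5, 65.7 and 371 TPM in mouse 2 tumors 1, 2 and 3. *Saa2*, its neighbour on chromosome 7, had 8.38 and 8.71 TPM and then 7.08, 22.2 and 156 TPM in the same tumors. Tumor 3 of mouse 2 was highest for both genes, tumor 2 of mouse 2 came next, and the other 3 tumors lay close together.

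In tumor 1 of mouse 1 the values of both genes rested on very few reads. *Saa1* had 3 estimated counts there (95% exact Poisson interval 0.619 to 8.77), or 0.462 TPM. *Saa2* had 1 count (0.0253 to 5.57), or 0.0278 TPM. These intervals cover counting error only. Both genes were at the limit of detection in that tumor, and no fold is given against it. The coefficient of variation over the other 5 tumors was 149.7% for *Saa1* and 160.3% for *Saa2*, against 15.6% to 34.8% for the 7 genes other than these and *Apcs*, for which it was 72.3%.

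*Saa1* and *Saa2* moved together. Their ratio stayed between 2.38 and 3.61 over the 5 tumors, while the level of *Saa1* spanned 17.6-fold. Because near-identical transcripts can exchange reads, the sum of both was also followed. It was 29.5, 32.5, 32.6, 87.9 and 527 TPM in mouse 1 tumors 2 and 3 and mouse 2 tumors 1, 2 and 3. The place of tumors 2 and 3 of mouse 2 at the top thus did not depend on the split. The order of the lower tumors did, since tumor 1 of mouse 2 was the highest of them for *Saa1* and the lowest for *Saa2*. The transcripts named Saa1-201 and Saa2-201 in the current annotation were 94.3% identical, with a longest shared run of 99 bases. The reads of 150 bases were thus longer than any run the 2 transcripts share, though these models are longer than the deposited ones.

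The genes also share the sequence in front of their starts, which is shown because *Saa1* and *Saa2* had nearly the same pattern over the tumors. Whether the sequence bears on that pattern was not tested. *Saa1* lies on chr7:46740497-46743181 (GRCm38, minus strand) and *Saa2* on chr7:46751833-46754313 (plus strand), in opposite directions. The 250 bases before the RefSeq starts were 95.2% identical. Windows of 30 bases follow, from 5′ to 3′ on each gene's strand, and capitals mark a match on either strand to the C/EBP motif TTNNGNAA.
Saa1, chr7:46743144-46743173: ctgtgctcccaTTGCACAAtgagggagaat
Saa2, chr7:46751639-46751668: ctgtgctcccaTTGCACAAtgagggaaaat
Saa1, chr7:46743048-46743077: ttgtctggagtTTTCCCAAgggtggtgcca
Saa2, chr7:46751735-46751764: ttgtctggagtattaccaagggtggtgcca

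The match in the upper pair began 182 bases before the start of *Saa1* and 1 base further from that of *Saa2*. The match in the lower pair, 86 bases before the start of *Saa1*, had no counterpart in *Saa2*. A C/EBP match was found in 7 of the 8 members whose promoter was in the RefSeq table, and in 36.8% of all 32851 promoters of that length. None of the 8 had a match to the NF-kappaB consensus, which 3.90% of all promoters held. A match says only that the letters are there. The RefSeq span of *Saa1* reaches past the start used for the 250 bases, so both windows of *Saa1* lie within it. That of *Saa3* does so too, and all 250 bases searched for *Saa3* lie within its span.

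**Figure D2:**
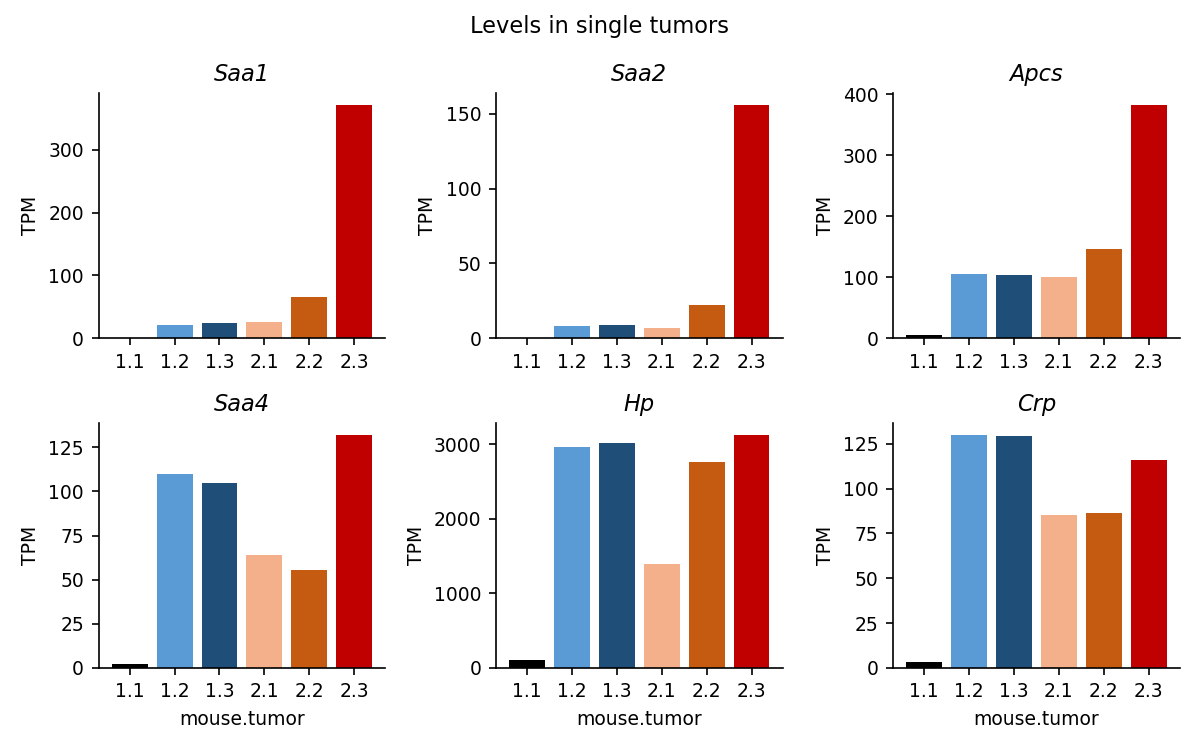
TPM of *Saa1*, *Saa2*, *Apcs*, *Saa4*, *Hp* and *Crp* in each tumor, named by mouse and tumor number, as bars from 0 without error bars. *Saa1* and *Saa2* reach 371 and 156 TPM in tumor 3 of mouse 2, while *Saa4* and *Hp* are nearly as high in mouse 1 tumors 2 and 3.

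Reads assigned to transcripts with a retained intron were found mainly in mouse 2. For *Saa1*, these were 52.5, 49.3 and 448 estimated counts in mouse 2 tumors 1, 2 and 3, or 23.9%, 10.7% and 16.1% of the gene's counts. In mouse 1 tumors 2 and 3 they were 1.02 and 0, of 132 and 171 counts. *Saa2* had 21.3%, 8.40% and 12.2% of its counts on such a transcript in mouse 2, and 0% and 3.25% in mouse 1 tumors 2 and 3. All tumors of mouse 2 thus lay above those 2 tumors for both genes. Such shares were not computed over all genes, so whether this is particular to *Saa1* and *Saa2* was not tested. On the TPM scale the retained intron took at most 4.84% of either gene in mouse 2. In tumor 1 of mouse 1 the only count of *Saa2* was on that transcript, and none was on the protein-coding ones. Whether genomic DNA or unspliced RNA contributed was not tested.

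*Saa3* and *Saa4* varied less than the inducible pair. *Saa3* had 8.96 and 8.46 TPM in mouse 1 tumors 2 and 3 and 8.20, 10.7 and 14.6 TPM in mouse 2, and 0.588 TPM (4 counts) in tumor 1 of mouse 1. Its spread over the 5 tumors was 1.78-fold, with tumor 3 of mouse 2 highest and tumor 2 of mouse 2 next, as for *Saa1* and *Saa2*. *Saa4*, the constitutive member, had 110 and 105 TPM in mouse 1 tumors 2 and 3, 64.1, 55.5 and 132 TPM in mouse 2, and 2.31 TPM in tumor 1 of mouse 1. The mice overlapped for both genes. The ratio of *Saa1* to *Saa4* rose with *Saa1*, from 0.192 and 0.227 in mouse 1 tumors 2 and 3 to 0.398, 1.18 and 2.81 in mouse 2.

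The orosomucoid genes lie on chromosome 4 and had coefficients of variation of 22.6% (*Orm1*) and 15.6% (*Orm2*) over the 5 tumors, near the 20.3% of *Crp* and the 21.7% of *Hpx*. *Orm1* had 636 and 597 TPM in mouse 1 tumors 2 and 3, 381, 418 and 612 TPM in mouse 2 and 19.7 TPM in tumor 1 of mouse 1. *Orm2* had 103 and 109 TPM, then 130, 109 and 83.2 TPM, and 5.87 TPM in the same order. In tumor 3 of mouse 2 *Orm2* was at its lowest among the 5 tumors, where *Saa1* and *Saa2* were at their highest. The ratio of *Orm1* to *Orm2* ran from 2.94 to 7.35.

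*Orm3*, the remaining gene of the family, was low. It had 7.20 and 7.15 TPM in mouse 1 tumors 2 and 3 and 1.70, 3.33 and 1.09 TPM in mouse 2. In tumor 1 of mouse 1 no read was assigned to it, and a count of 0 allows for up to 3 reads. The 3 orosomucoid genes were 85.7% to 91.0% identical in pairs, so some reads may be misplaced among them. Their sum varied less than their ratios did, from 512.6 to 747 TPM over the 5 tumors.

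The scavengers of hemoglobin and heme were high in all tumors with hepatocyte transcripts. *Hp* had 2967 and 3023 TPM in mouse 1 tumors 2 and 3, 1399, 2759 and 3127 TPM in mouse 2, and 103 TPM in tumor 1 of mouse 1. *Hpx* had 1872 and 1897 TPM, then 1348, 2101 and 2515 TPM, and 61.9 TPM in the same order. Tumor 1 of mouse 2 was the lowest of the 5 for both genes, and the other 4 values of *Hp* lay between 2759 and 3127 TPM. The ratio of *Hp* to *Hpx* was lowest in that tumor, at 1.04, and between 1.24 and 1.59 in the other 4.

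The pentraxins, pattern recognition proteins encoded on chromosome 1, followed different courses over the tumors. *Apcs*, which encodes serum amyloid P, had 105 and 104 TPM in mouse 1 tumors 2 and 3, 101, 146 and 382 TPM in mouse 2 and 4.70 TPM in tumor 1 of mouse 1. *Crp*, which encodes C-reactive protein, had 130 and 129 TPM, then 85.4, 86.6 and 116 TPM, and 3.02 TPM in the same order. Tumor 3 of mouse 2 was thus far the highest for *Apcs* and within the range of the others for *Crp*. The ratio of *Apcs* to *Crp* was 0.811 and 0.802 in mouse 1 tumors 2 and 3 and 1.18, 1.69 and 3.30 in mouse 2.

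*Apcs* lies on chr1:172893961-172895054 (GRCm38, minus strand). Of the 8 members whose promoter was searched, it was the only one with a match to the STAT motif TTCNNNGAA, in capitals here, which began 244 bases before its start and which 7.02% of all promoters held. It is shown since *Apcs* shared its highest tumor with *Saa1* and *Saa2*, neither of which had such a match.
Apcs, chr1:172895275-172895304: atcttcTTCTAGGAAagcacagggtcatga

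Tumor 1 of mouse 1 was the lowest of the 6 tumors for 10 of 10 members. It was also the lowest for 22.2% of the 12518 genes averaging 1 TPM or more, for 12 of 12 hepatocyte markers and for 10 of 10 negative acute phase genes. These lists overlap. *Alb*, *Apoa1*, *Ttr*, *Trf* and *Ahsg* are in both, and the marker *Fgb* is also among the other positive acute phase genes. The median member had 3.28% of its median in the other 5 tumors. The median was 4.23% for the hepatocyte markers, 3.28% for the negative acute phase genes and 195% for all genes. Members and negative acute phase genes were thus low together in this tumor. Of the 22 other positive genes 19 were lowest there, with a median of 4.57%, while *Mt2*, a metallothionein gene named after its values were seen, was highest there, at 227 TPM against 8.01 to 21.0 TPM.

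Scaled to the hepatocyte markers of each tumor, the sum of the members no longer set this tumor apart. Their sum was 94.1 TPM per 1000 TPM of hepatocyte markers there, within the range of 76.7 to 139 in the other 5. On this scale *Hp* had 48.0 there against 30.3 to 66.3 in the others. *Orm1*, *Orm2* and *Apcs* also lay within the range of the others, and *Hpx* just under it, at 28.9 against 29.1 to 50.5. *Saa4* (1.08 against 1.33 to 1.88) and *Crp* (1.41 against 1.65 to 2.08) were still the lowest there. So were *Saa1* (0.216 against 0.328 to 5.28) and *Saa2* (0.0130 against 0.130 to 2.22), from 3 and 1 counts. *Saa3* was the highest (0.275 against 0.130 to 0.258), from 4 counts.

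**Figure D3:**
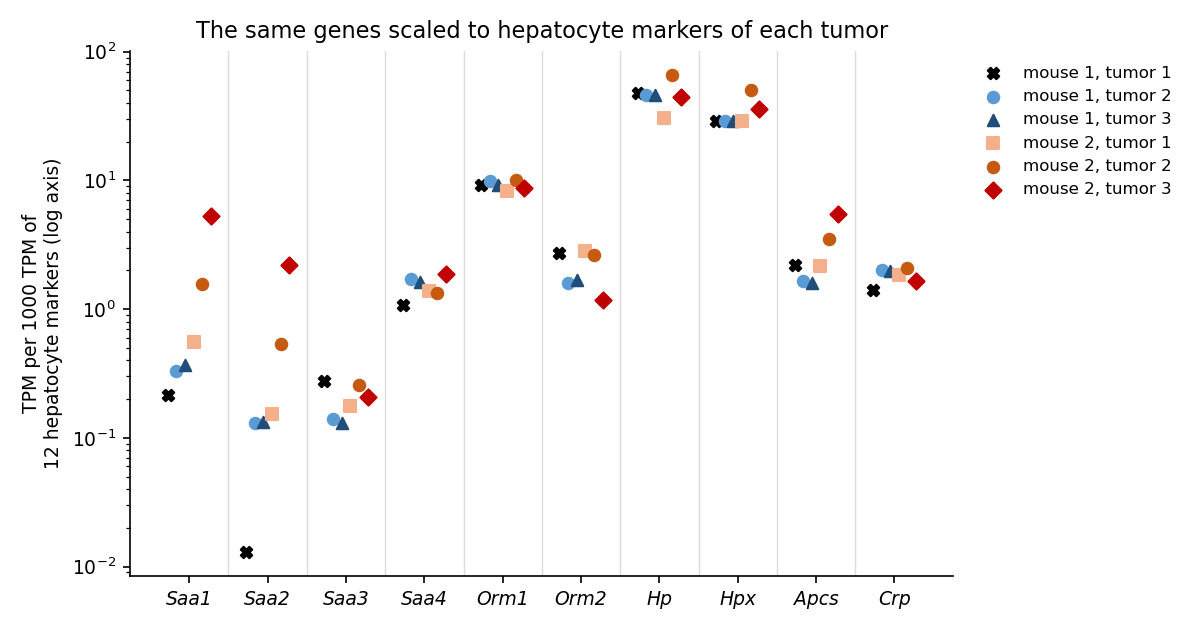
TPM of each gene per 1000 TPM of the 12 hepatocyte markers of the same tumor (log axis), 1 point per tumor. For *Hp* and *Orm1* tumor 1 of mouse 1 (black crosses) lies among the others, at 48.0 and 9.23, while tumor 3 of mouse 2 (red diamonds) stays highest for *Saa1*, *Saa2* and *Apcs*.

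Tumor 3 of mouse 2 was, with tumor 1 of mouse 1 set aside, the highest for 7 of 10 members, and for 8.13% of all genes averaging 1 TPM or more. At that same level, it was the highest for 41.7% of the hepatocyte markers. The share was 42.9% for the other positive acute phase genes and 30% for the negative ones. The level of *Saa2* there was 18.2 times, that of *Saa1* 15.0 times and that of *Apcs* 3.65 times the median of the other 4 tumors. For the other 7 members this fold was between 0.763, for *Orm2*, and 1.67, for *Saa3*. Over all genes the median fold was 0.671, over the other positive acute phase genes 1.16, over the negative ones 1.03 and over the hepatocyte markers 1.08. The other positive genes ran from 0.208, for *Orm3*, to 3.10, for *Hamp*, which was named after its values were seen.

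The difference was also large against the next tumor in rank. *Saa2* was 7.03 times, *Saa1* 5.65 times and *Apcs* 2.61 times the highest of the other 4 tumors. Of 7666 genes averaging 5 TPM or more, 48 were at least 2 times and 11 at least 4 times higher than in each of the other 4. By this fold *Saa2* ranked 4, *Saa1* 7 and *Apcs* 27. Since these are values of 1 tumor, they have no replicate. Relative to hepatocyte markers, *Saa1* was 5.28 there and 0.328 to 1.58 per 1000 TPM in the other 4, so the tumor stayed apart on that scale. Since negative acute phase genes are among these markers, the scale is not independent of the response.

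Markers of other cells differed in that tumor too. The 12 macrophage markers summed to 235 TPM, against 341 to 881.5 TPM in the other 4 tumors. The 10 neutrophil markers summed to 27.4 TPM, against 12.1 to 23.0 TPM, of which *S100a8* made 10.3 and *S100a9* 13.6 TPM. The other 8 went both ways. *Retnlg* (1.80 TPM) and *Elane* (1.17 TPM) were also highest there, *Csf3r* (0.429 TPM) was at its lowest of the 5 tumors, and *Ly6g*, *Mpo* and *Ngp* were at 0. *Csf3r* apart, these were named after their values were seen. Of the 8 adipocyte markers, 4 averaged 1 TPM or more, and the sum of all 8 lay within the range of the other tumors, 974 TPM against 734 to 988 TPM. The part of these cells in the levels of *Saa1*, *Saa2* and *Apcs* was not tested.

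**Figure D4:**
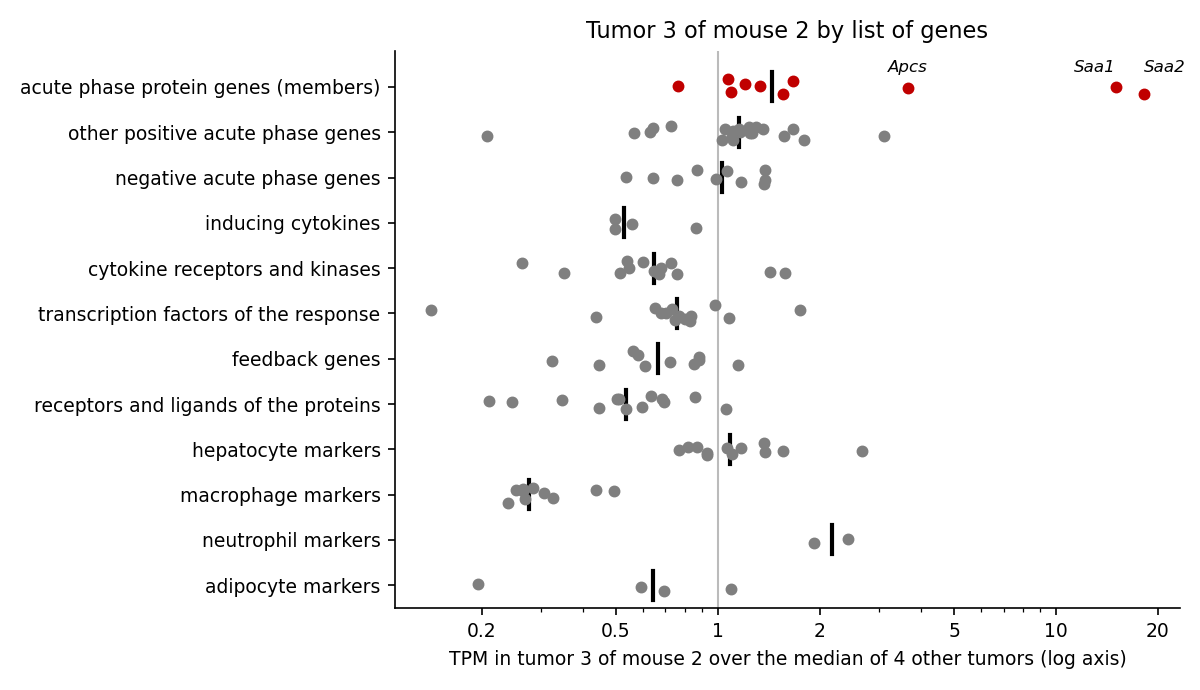
TPM in tumor 3 of mouse 2 over the median of the 4 other tumors without tumor 1 of mouse 1 (log axis), 1 point per gene averaging 1 TPM or more, by list, with the list's median as a black bar. *Saa2*, *Saa1* and *Apcs* lie at 18.2, 15.0 and 3.65, and the median of the macrophage markers at 0.277.

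The labels allow 1 comparison, mouse 2 against mouse 1. No member passed in edgeR's quasi-likelihood test with Benjamini-Hochberg adjustment over all genes, and with 6 tumors 0% of the 13268 genes tested were called higher and 0% lower. At an unadjusted p under 0.05, 1449 genes stood out with edgeR and 708 with limma-voom, which also called none, while DESeq2 called 133 higher and 69 lower. Without tumor 1 of mouse 1, the share called by edgeR was 0.419% of 13374 genes in the direction of mouse 2 and 0.837% in that of mouse 1, with again 0 of 10 members in either direction. These calls hung on single tumors. Without tumor 2 of mouse 1 as well, 0 genes were called higher and 0 lower, and without tumor 3 of mouse 1 they were 2 and 0. Both of these fits leave 1 tumor of mouse 1, which is assumed to vary like those of mouse 2. The counts were 0 and 0 without tumor 1 of mouse 2, 92 and 208 without tumor 2 and 398 and 309 without tumor 3. At an unadjusted p under 0.05, 1031 genes stood out without tumor 2 of mouse 1 and 2733 without tumor 1 of mouse 2.

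By value, *Saa1* and *Saa2* differed most between the mice. The log2 fold change of *Saa1* was 4.24 ± 1.68 (SE) with 6 tumors (adjusted p = 0.443, edgeR) and 3.66 ± 1.32 without tumor 1 of mouse 1 (adjusted p = 0.206). For *Saa2* it was 4.27 ± 1.74 (adjusted p = 0.456) and 3.68 ± 1.48 (adjusted p = 0.245). The share of counts from mitochondrially encoded genes, 12.9% to 18.4% in mouse 2 and 6.85% to 8.34% in mouse 1, moved with the mouse as well. Without these genes and tumor 1 of mouse 1 the values were 3.66 and 3.68. The scaling in that fit (TMM) largely offsets such a removal, so it cannot weigh this share. The part of RNA quality was not tested. Tumor 3 of mouse 2 set the size of both log2 fold changes. Without it and tumor 1 of mouse 1, the values were 1.60 for *Saa1* (adjusted p = 0.0694) and 1.29 for *Saa2*. Over all alternatives the adjusted p of *Saa1* ran from 0.0663 to 0.915.

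*Apcs* had a log2 fold change of 2.15 ± 1.23 with 6 tumors (adjusted p = 0.576) and 1.59 ± 0.68 without tumor 1 of mouse 1 (adjusted p = 0.270, edgeR), and 0.63 once tumor 3 of mouse 2 was left out too (adjusted p = 0.0740). Its adjusted p ran from 0.0730 to 0.929 over the alternatives. *Orm2* had the smallest error without tumor 1 of mouse 1, at 0.54 ± 0.17 (adjusted p = 0.171). The other 6 members lay between 0.09, for *Crp*, and 0.92, for *Saa3*, in that fit. *Saa4*, *Orm1*, *Hp* and *Crp* turned to between -0.20 and -0.01 when, without tumor 1 of mouse 1, the library size alone was used for scaling, so their direction between the mice was not settled.

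**Figure D5:**
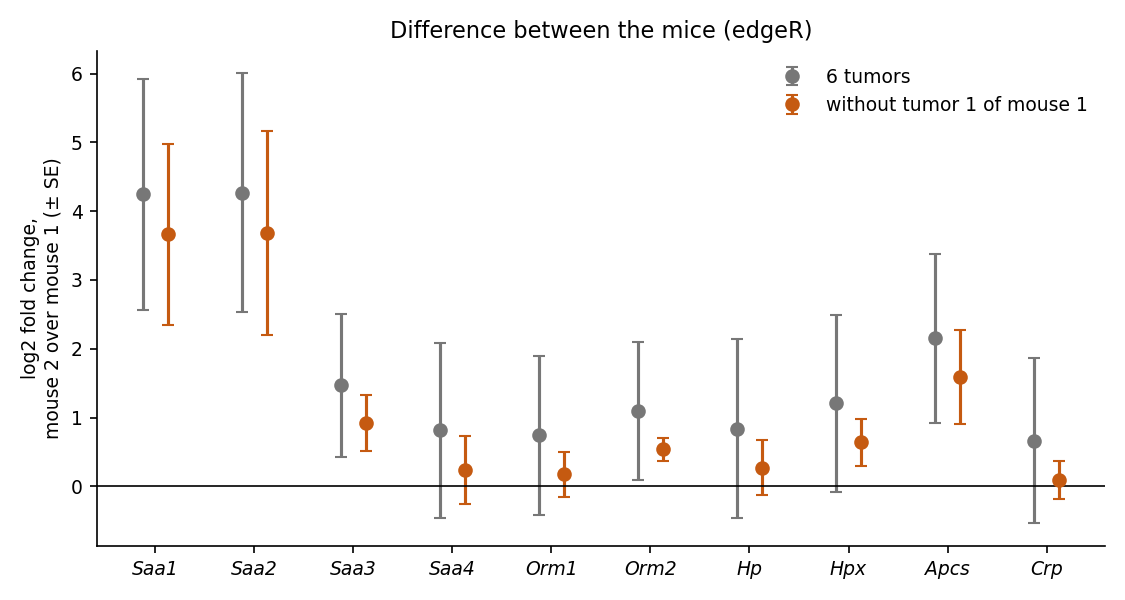
Log2 fold change of mouse 2 over mouse 1 with its standard error (edgeR) for the 10 genes, with 6 tumors (grey) and without tumor 1 of mouse 1 (orange). *Saa1* and *Saa2* are highest, at 3.66 and 3.68 without that tumor, and no gene passed the adjusted test.

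The median of the 10 members was 1.15 on the log2 scale with 6 tumors and 0.59 without tumor 1 of mouse 1, against -0.04 and 0.01 over all genes tested. The hepatocyte markers had medians of 0.76 and 0.19. On the TPM scale, *Saa1* was the only member with no overlap and a higher level in mouse 2, both with 6 tumors, as were 1.75% of the 12518 genes, and with 5, as were 4.51%. The margin was small, 25.5 TPM in tumor 1 of mouse 2 against 23.8 TPM in tumor 3 of mouse 1. *Crp* was the only member with a lower level in mouse 2 and no overlap over the 5 tumors, as were 57.4% of genes. With 6 tumors no member was, against 41.9% of genes. Its log2 fold change after TMM scaling was above 0 all the same, at 0.09.

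The rest of the response was followed in lists of genes. Of the other positive acute phase genes 21 of 22 were tested and none was called by edgeR in either fit, with medians of 1.03 and 0.47. DESeq2 called 1 of them higher with 6 tumors, where it called 133 of 13268 genes higher. Without tumor 1 of mouse 1 it called 4 higher and 0 lower, against 782 and 587 of 13374 genes. Once tumor 3 of mouse 2 was left out too, edgeR called 1 higher and 2 lower, against 398 and 309 of 13328 genes. *C3*, the central complement component, had 1202 ± 669 TPM, and the fibrinogen genes *Fgg* and *Fga* had 851 ± 402 and 720 ± 334 TPM (SD, n = 6 each). None of the 10 negative acute phase genes was called in these fits. Their edgeR medians were 0.75 with 6 tumors and 0.18 without tumor 1 of mouse 1. Among them *Alb* (albumin) had 8348 to 16603 TPM, *Trf* (transferrin) 6571 to 9221 TPM and *Apoa1* (apolipoprotein A-I) 4096 to 8542 TPM over the 5 tumors.

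The cytokines that induce the members were low. *Il6* was listed at 0 in each of the 5 tumors and had 0.562 TPM in tumor 1 of mouse 1. *Ctf1*, *Clcf1* and *Il1b* were the highest of the 10 cytokines, with means of 5.07, 1.52 and 1.40 TPM, and edgeR called none of the 5 tested. Of the 14 receptors and kinases, all tested and none called by edgeR in either fit, *Tnfrsf1a*, *Lifr* and *Il1rap* were the highest, with means of 59.6, 39.3 and 33.3 TPM. The feedback genes, led by *Nfkbia*, *Bcl3* and *Il18bp*, had 11 of 12 members tested and none called by edgeR in either fit. Without tumor 1 of mouse 1, DESeq2 called 1 receptor or kinase higher, and of the feedback genes 2 higher and 1 lower, where limma-voom called 1 and 1. Of all 13374 genes DESeq2 called 782 higher and 587 lower there, and limma-voom 177 and 300.

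Among 14 transcription factors of the response, edgeR called 1 higher and 1 lower in mouse 2 without tumor 1 of mouse 1, where 0.419% and 0.837% of all genes were called. With 6 tumors it called none, and DESeq2 1 higher and 1 lower, against 133 and 69 of 13268 genes. Without tumor 1 of mouse 1, DESeq2 called 2 higher and 1 lower, against 782 and 587 of 13374 genes. There limma-voom called 1 and 0, against 177 and 300, and library size alone in edgeR gave 0 and 1, against 20 and 131. The calls thus depended on the method. *Cebpd*, a C/EBP factor that rises early in the response, had 2.48 and 2.60 TPM in mouse 1 tumors 2 and 3 and 5.48, 6.08 and 3.97 TPM in mouse 2. Without tumor 1 of mouse 1, its log2 fold change was 1.53 ± 0.17 (adjusted p = 0.0299, edgeR). *Relb*, an NF-kappaB subunit, had 2.49 and 5.84 TPM in those tumors of mouse 1 and 0.381, 0.147 and 0.203 TPM in mouse 2. In the same fit its log2 fold change was -3.76 ± 0.54 (adjusted p = 0.0474, edgeR). Its mouse 2 values were near the floor, where 3 counts on 1 kb of effective length make 0.142 to 0.157 TPM. *Cebpd* was thus lowest of the mouse 2 tumors in tumor 3, where *Saa1* and *Saa2* were highest. With 1 more tumor left out, edgeR still called 1 factor higher without tumor 2 of mouse 2, and 1 higher and 1 lower without tumor 3 of mouse 2. In these fits edgeR called 92 higher and 208 lower of 13276 genes, and 398 and 309 of 13328. Without any of the other 3 tumors it called none in either direction.

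*Hnf4a*, *Cebpa* and *Creb3l3* were the factors of highest mean level, with 113, 103 and 100.3 TPM. *Cebpb*, which ranked next, had 79.9 and 88.0 TPM in mouse 1 tumors 2 and 3 and 104, 96.3 and 162 TPM in mouse 2. It was highest where *Saa1* and *Saa2* were, and it was singled out after its values were seen. Its log2 fold change of 1.23 ± 0.37 did not pass (adjusted p = 0.156, edgeR). Receptors and ligands of the proteins, among which *Hbb-bs*, *Hba-a2* and *Hba-a1* of hemoglobin were highest, had 15 of 15 genes tested and none called by edgeR in either fit. DESeq2 called 2 of them lower without tumor 1 of mouse 1, where it called 587 of 13374 genes lower. Once tumor 3 of mouse 2 was left out too, edgeR called 3 lower, against 309 of 13328 genes. The summed level of that list ran from 1318 to 11538 TPM over the 5 tumors, which includes RNA of red blood cells. Of the marker lists, edgeR called no hepatocyte, macrophage, neutrophil or adipocyte marker with 6 tumors or without tumor 1 of mouse 1. In the latter set DESeq2 called 1 macrophage marker lower, against 587 of 13374 genes. With a further tumor left out, edgeR called 1 macrophage marker lower (tumor 2 of mouse 2) and 1 adipocyte marker higher (tumor 3 of mouse 2). Over all genes, 208 of 13276 were lower in the former fit and 398 of 13328 higher in the latter.

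The genes most like each member were taken by the root mean square difference of centred log2(TPM + 1), among 8761 genes averaging 5 TPM or more. This is a description over tumors that share 2 animals. Over 6 tumors *Saa1* was nearest to *Saa2* (0.41), *Apoa4* (0.70) and *Fabp2* (0.73), and *Saa2* to *Saa1*, *Fabp2* and *Cxcl1*. *Orm1* and *Crp* were near each other, at 0.093, and *Lcat* was among the nearest of both. *Hp* was nearest to *Fgl1*, *Lrg1* and *Acnat2*, *Hpx* to *Cfi*, *Agt* and *Gsta3*, and *Apcs* to *Bhmt*, *Cfhr2* and *Fam25a*. *Saa4* was nearest to *Maob*, *Ttr* and *Serpina1b*, *Orm2* to *Mst1*, *Mttp* and *Slc17a3*, and *Saa3* to *Tmem120a*, *Ube2l6* and *Gk*. *Crp* was nearest to *Azgp1*, *Rbp4* and *Lcat*.

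Without tumor 1 of mouse 1, *Saa1* and *Saa2* remained nearest to each other, at 0.19, followed for both by *C9*, a terminal complement component, and *Arg1*. The distance of *Saa1* and *Saa2* was 0.37 and 0.46 to *C9*, and 0.72 and 0.78 to *Arg1*. *Apcs* was nearest to *Bhmt* (0.16), *Rps26-ps1* and *Cfhr2*, and *Hp* kept *Fgl1* among its nearest. For other members the nearest genes changed. They were *Vwa8*, *Xrcc5* and *Ftcd* for *Orm1*, *Hdac10*, *Srsf6* and *Arsk* for *Orm2*, *Gnpnat1*, *Mrpl15* and *Apip* for *Saa3*, and *Tcp11l1*, *Xaf1* and *Prkra* for *Hpx*. *Orm1* and *Crp* were then 0.13 apart and no longer among each other's nearest. *Crp* ranked 64 by nearness to *Orm1*, and *Orm1* ranked 154 by nearness to *Crp*.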

How the data were processed

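RNAseq values of 6 CMRtdT liver tumors were used, grouped by mouse from the sample labels. The authors deposited estimated counts of reads per transcript, without normalization. Beside them they deposited TPM, scaled for effective length and depth. The tables have the layout of Salmon. GRCm38, BWA and Picard stand in the submitters' processing notes. The release of the index was not given in the sources used here.

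Of 116546 transcripts, 114813 were matched by identifier to GENCODE vM39 for names, and values were summed per gene. Positions and promoters are from RefSeq on GRCm38, and transcript sequences for identity from vM39. Promoters of 8 of 10 members were in the table. Matches to TTCNNNGAA, TTNNGNAA and the NF-kappaB consensus were sought on both strands.

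The members, the lists and the tests were chosen with earlier results of these data known. Named genes are the members, *Orm3*, the 3 genes of highest mean TPM of each list with those called, and the 3 genes most like each member. Some genes that this rule names are not reported here. The test between the mice used estimated counts rounded to whole numbers in edgeR 4.0.16 (quasi-likelihood, TMM, filterByExpr, two-sided, Benjamini-Hochberg, adjusted p under 0.05), with DESeq2 1.42.0 and limma 3.58.1 as alternatives, under R 4.3.3. It was also run on simulated counts with a fixed spread and tumors drawn independently. These lacked shared animals and a tumor that stands apart, so they do not show how the test performs here. Standard errors were taken as the log2 fold change over the root of the F statistic. Other alternatives were the scaling, the filter, mitochondrial genes, tumor number as a block and single tumors left out. A p here measures the spread between tumors of 1 animal. TMM moved log2 fold changes by 0.48 with 6 tumors and by 0.26 with 5. Totals of 19130532 to 27681766 counts limit genes of few reads, and a count of 0 allows up to 3. Python 3.11.15 was used with Biopython 1.88, matplotlib 3.10.9, pandas 2.3.3, numpy 2.4.6 and scipy 1.17.1.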

Additional observations from a re-analysis of the deposited data

Results flagged for a closer look

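Tumor 1 of mouse 1 was far from the other 5 tumors, as the lowest, for 8 of 10 members. The gap to the next tumor as a share of the whole range of log2(TPM + 1), Dixon's ratio, was 0.770 for *Saa3*, 0.768 for *Saa4*, 0.851 for *Orm1*, 0.851 for *Orm2*, 0.764 for *Hp*, 0.831 for *Hpx*, 0.685 for *Apcs* and 0.880 for *Crp*. Each was past the 95% critical value for 6 tumors. For *Saa1* and *Saa2* the ratio was 0.490 and 0.410, since tumor 3 of mouse 2 widened their range. The 12 hepatocyte markers were also lowest in that tumor.

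Among the other 5 tumors, *Hp* in tumor 1 of mouse 2 was far below the rest (0.844) and *Apcs* in tumor 3 of mouse 2 far above (0.721), both past the 95% critical value for 5 tumors. The ratios of *Saa1* and *Saa2*, at 0.609 and 0.645, stayed under it, since tumor 2 of mouse 2 lay between. Chance flags about 1 in 20 groups of independent, normally distributed values. These tumors share animals, tumors 2 and 3 of mouse 1 were close, and the members are not independent of each other. The rate thus need not hold here.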

How the results depend on the processing

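No member was called in any of the 21 alternatives to the test with 6 tumors, and 202 of 210 log2 fold changes kept their direction. Without tumor 1 of mouse 1 and with library size alone, 4 turned below 0: *Saa4* to -0.078, *Orm1* to -0.12, *Hp* to -0.014 and *Crp* to -0.20. Without tumor 1 of mouse 1 and tumor 3 of mouse 2 the same 4 were -0.41, -0.21, -0.10 and -0.20, in that order, the lowest values with tumors left out, and the highest were 1.27, 1.24, 1.24 and 1.10. Over all genes, edgeR called 0 higher and 0 lower in mouse 2 with 6 tumors, and DESeq2 133 and 69. With tumors left out, alone or with tumor 1 of mouse 1, the counts ran from 0 to 398 higher and from 0 to 309 lower. Without tumor 1 of mouse 1, DESeq2 called 782 and 587, limma-voom 177 and 300, library size alone 20 and 131, and edgeR without mitochondrial genes 54 and 111. The replicate block on tumor number gave 0 and 0. Same-numbered tumors did not deviate together (r of 0.0204, -0.0281 and 0.0327), so the number was taken as a name only. Leaving out a tumor in addition to tumor 1 of mouse 1 was chosen after seeing the data. Of 88 alternative mean or summed levels, 88 moved by less than 1 SD. Of 40 alternative sets of nearest genes, 31 held at least 2 of the 3 genes. Genes with few reads, *Saa1* to *Saa3* in tumor 1 of mouse 1, are limited by depth.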
